A study of Homo sapiens with 60 samples.

Results

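The 7 genes described here belong to the aryl hydrocarbon receptor (AHR) pathway: the receptor gene AHR, its dimer partner ARNT, the cytochrome P450 genes CYP1A1 and CYP1B1, the ADP-ribosyltransferase gene TIPARP, the repressor gene AHRR and the glucuronosyltransferase gene UGT1A6. They were chosen by name and matched to 7 of the 60675 Ensembl identifiers in the count table, and all 7 passed the filter on low counts. The RNA came from A549 cells, an established line from a human non-small cell lung carcinoma, collected 24 h after the addition of 1 of the extracts, or of the vehicle dimethyl sulfoxide (DMSO), at 0.1% according to the sample labels and at 2% according to the series text. There were 8 herbal extracts with 3 doses each (high, medium, low), and the 60 libraries formed 25 groups. The hot-water extracts were 2 decoctions, Yijin-tang (3 libraries at each dose) and Soshiho-tang (2 libraries at each dose). The ethanol extracts of single herbs were, with 3 libraries at each dose, Longan Arillus, Schisandrae Fructus, Zizyphi Semen and Liriopis seu Ophiopogonis Tuber, and, with 1 library at each dose, Aucklandiae Radix and Polygalae Radix. Aucklandiae Radix was given at 370, 74 and 14.8 µg/mL and Polygalae Radix at 380, 76 and 15.2 µg/mL, the high dose being the concentration that the study calls IC20. All others were given at 500, 100 and 20 µg/mL. Vehicle had 3 libraries. An A549 culture is 1 tumor-derived line, and an extract is a mixture of many compounds.

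AHR is a transcription factor that waits in the cytoplasm bound to chaperones until a small, usually flat aromatic molecule binds it. It then enters the nucleus, pairs with ARNT and binds DNA elements that contain the core GCGTG, which turns on genes of xenobiotic metabolism. CYP1A1 and CYP1B1, which oxidize polycyclic aromatic compounds, are its classic targets in airway epithelium, while TIPARP and AHRR are targets that in turn dampen the receptor, and AHR activity is read in practice from its targets because the receptor's own transcript need not change.

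The members lie on 6 chromosomes (GRCh38, GENCODE 29 gene models). CYP1A1 is at chr15:74719542-74725610 on the minus strand, CYP1B1 at chr2:38066973-38109902 on the minus strand, TIPARP at chr3:156673235-156706770 on the plus strand and AHRR at chr5:304176-438291 on the plus strand. AHR is at chr7:16916359-17346152 on the plus strand, ARNT at chr1:150809705-150876768 on the minus strand and UGT1A6 at chr2:233691607-233773300 on the plus strand. Because the strand setting of the counting is not given in the sources used here, reads of CYP1B1 and TIPARP could not be told apart from those of their antisense neighbours CYP1B1-AS1 and TIPARP-AS1. AHRR overlaps PDCD6, and UGT1A6 shares its last exons with the other UGT1A genes, so their counts are uncertain.

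The core GCGTG was searched on both strands (CACGC on the strand shown) in the 250 bases before each RefSeq start on GRCh38.p14. Of the 7 members, 6 had a promoter entry (CYP1B1 did not), and 4 of those, CYP1A1, TIPARP, AHRR and UGT1A6, had the core in at least 1 entry, whereas AHR and ARNT had none. The core is common: 32.2% of 35116 promoter windows of the same length held it, and 10.2% held it at least 2 times. These shares are per window, whereas a member was counted if any of its entries held the core, so the measures are not alike. Below are the windows of the 2 targets that moved most and have an entry, followed by AHR for comparison, each 5′ to 3′ on the strand of its gene, with the core in capitals. The CYP1A1 window is chr15:74725529-74725778 (minus strand), with 1 core starting 57 bases before the start. The TIPARP window, the first of 3 entries, is chr3:156674340-156674589 (plus strand), with 2 cores on the opposite strand at 208 and 142 bases before the start. The other TIPARP entries held no core. The AHR window is chr7:17298402-17298651 (plus strand). A match of these letters is a description of the window and does not show a bound site.
CYP1A1: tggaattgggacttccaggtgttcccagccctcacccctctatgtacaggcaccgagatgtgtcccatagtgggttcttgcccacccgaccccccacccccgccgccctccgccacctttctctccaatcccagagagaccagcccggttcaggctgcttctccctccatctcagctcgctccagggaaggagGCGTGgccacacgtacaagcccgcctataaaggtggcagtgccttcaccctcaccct
TIPARP: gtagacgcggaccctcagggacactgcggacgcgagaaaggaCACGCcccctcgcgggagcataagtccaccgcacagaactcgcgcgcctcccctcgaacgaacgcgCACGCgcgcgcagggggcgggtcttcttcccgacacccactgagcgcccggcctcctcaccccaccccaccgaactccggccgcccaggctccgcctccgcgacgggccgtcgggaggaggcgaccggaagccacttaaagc
AHR: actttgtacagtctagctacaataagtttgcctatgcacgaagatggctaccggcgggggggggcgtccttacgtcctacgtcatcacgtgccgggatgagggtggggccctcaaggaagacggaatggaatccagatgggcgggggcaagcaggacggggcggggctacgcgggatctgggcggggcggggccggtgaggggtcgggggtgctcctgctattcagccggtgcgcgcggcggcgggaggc

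Depth ranged from 18002709 to 33831798 counts per library. Levels are given as CPM, counts of the gene per 1000000 counts of the library, with TMM scaling between libraries. In the replicated groups, 2 of 54 libraries stood apart, replicate 3 of Longan Arillus low and replicate 3 of Soshiho-tang medium: long transcripts were depleted in both, and across 9494 genes the slope of level on log2 length was -0.52 and -0.45, against -0.107 to 0.0434 in the other 52. Tests are therefore given in the fit of 54 libraries, and many also in the fit of 52 without them. A gene was called when its adjusted p (edgeR quasi-likelihood test, Benjamini-Hochberg over all genes of the contrast) was below 0.05. The titles place all 60 libraries in 1 batch (BatchC). Library sets were read here from the first field of the library names, and the labels do not say what it stands for. By these names vehicle was a set of its own, so the extract and the set cannot be told apart in comparisons with vehicle. The doses of 1 extract came from 1 set. Nothing in the labels says that replicates came from separate cultures. A p-value here thus covers only library-to-library spread, which may be technical. In bulk RNA, a change in the share of cells that express a gene and a change per cell cannot be told apart. The summed A549 epithelial markers (9 genes) were 17790 CPM or more in every library except the high and medium doses of Polygalae Radix (3433 and 11440) and Aucklandiae Radix (12380 and 16720), and all 6 endothelial and all 6 hepatocyte markers were under 1 CPM in every library.

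Per kilobase of the longest transcript, the mean vehicle level was 17.97 CPM for CYP1B1, 9.34 for TIPARP, 8.99 for AHR and 8.81 for ARNT, against 0.976 for AHRR, 0.562 for UGT1A6 and 0.438 for CYP1A1. CYP1A1, AHRR and UGT1A6 therefore rest on few counts (11 to 139, 35 to 184 and 7 to 63 per library), and CYP1B1 on 1549 to 4618.

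CYP1A1, CYP1B1 and TIPARP rose with both decoctions, while AHR and ARNT were called in no contrast of the extracts with replicates. The single library of Aucklandiae Radix high, which was not tested, held the highest CYP1A1 and TIPARP of all. Its AHR and ARNT were also the highest of all group means. CYP1A1, CYP1B1 and TIPARP were called higher than vehicle at the high dose of both decoctions, by 1.63, 0.88 and 0.74 log2 units with Yijin-tang and by 1.82, 1.01 and 0.88 with Soshiho-tang. These were 3 of 7 members in each contrast, against 0.286% of all genes tested called higher with Yijin-tang high and 3.02% with Soshiho-tang high (3.04% and 10.2% without the 2 libraries). Among the ethanol extracts of herbs with replicates, CYP1B1 was called higher with Schisandrae Fructus high. CYP1A1 did not exceed 6.37 CPM in any library, so its rise was large in ratio and small in level.

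**Figure D1:**
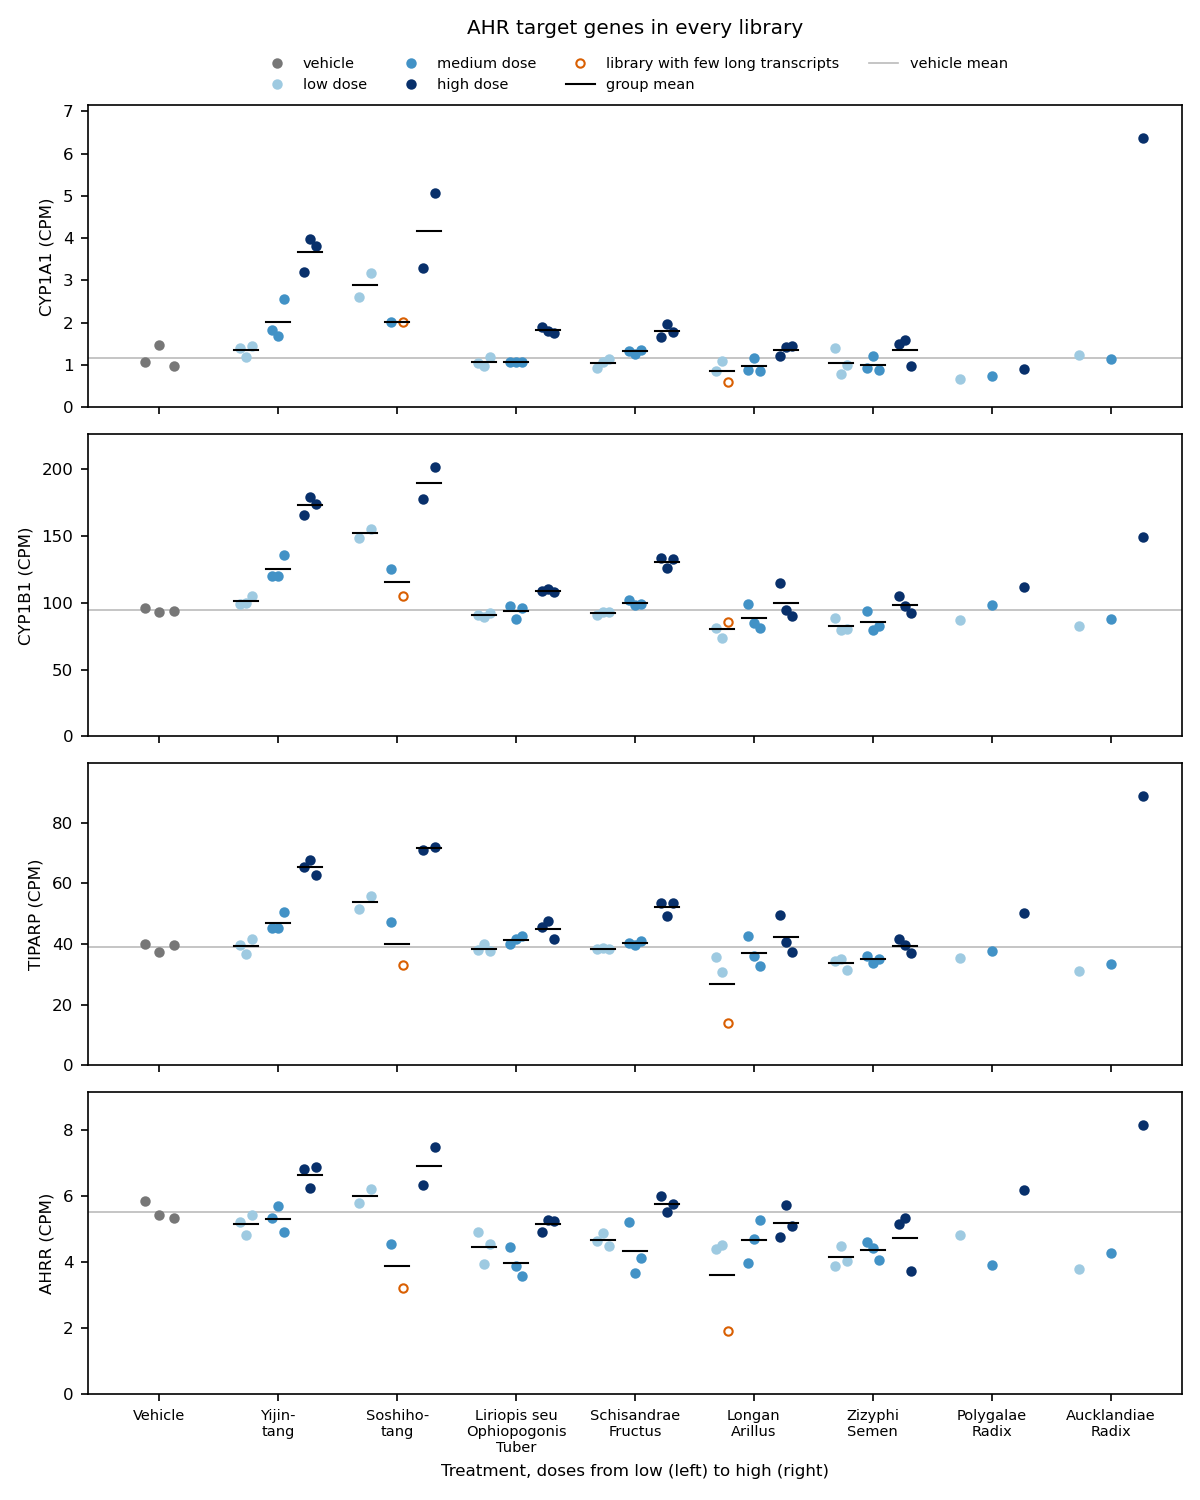
CPM (linear axes from 0) of CYP1A1, CYP1B1, TIPARP and AHRR in each of 60 libraries. Points are libraries colored by dose, black bars are group means, the grey line is the vehicle mean and open orange circles are the 2 libraries with few long transcripts. The high doses of Yijin-tang, Soshiho-tang and Aucklandiae Radix stand above vehicle for CYP1A1, CYP1B1 and TIPARP.

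CYP1A1, the P450 usually used as the marker of receptor activation, was at 1.06, 1.48 and 0.982 CPM in the vehicle libraries. Yijin-tang libraries held 1.40, 1.19 and 1.44 CPM at the low dose, 1.82, 1.70 and 2.56 at the medium dose and 3.19, 3.97 and 3.82 at the high dose. Soshiho-tang libraries held 2.62 and 3.17 CPM at the low dose, 2.03 and 2.01 at the medium dose and 3.28 and 5.07 at the high dose. Each dose of Soshiho-tang lay above the highest vehicle library, while the low dose of Yijin-tang lay among the vehicle libraries. At the high dose of Soshiho-tang, 25.5% of all genes lay above vehicle in this way, and the share was not counted at its lower doses. Against vehicle, CYP1A1 changed by 1.63 ± 0.191 log2 units (SE) with Yijin-tang high (adjusted p = 1e-06), 1.82 ± 0.206 with Soshiho-tang high (adjusted p = 4.84e-08) and 1.29 ± 0.210 with Soshiho-tang low (adjusted p = 0.00156), and the last call was lost without Soshiho-tang low replicate 3 (1.14, adjusted p = 0.293). With Liriopis seu Ophiopogonis Tuber high, at 1.896, 1.81 and 1.75 CPM, and Schisandrae Fructus high, at 1.67, 1.97 and 1.78 CPM, every library lay above vehicle, as 13.1% and 13.4% of all genes did at these doses. Neither passed in the fit of 54 (0.62, adjusted p = 0.256, and 0.61, adjusted p = 0.155), and both were called in the fit of 52 (0.62, adjusted p = 0.0443, where 2.62% of all genes were called higher, and 0.60, adjusted p = 0.038, where 4.23% were). Longan Arillus and Zizyphi Semen stayed between 0.605 and 1.59 CPM, which overlaps vehicle.

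CYP1B1, the second P450 of the family, was the most abundant member per kilobase. Vehicle libraries held 96.4, 92.8 and 93.9 CPM. With Yijin-tang the values were 98.9, 100.0 and 105 CPM at the low dose, 120, 120 and 136 at the medium dose and 166, 179 and 174 at the high dose. With Soshiho-tang they were 149 and 156 CPM at the low dose, 126 and 105 at the medium dose and 178 and 202 at the high dose. All 15 decoction libraries exceeded all vehicle libraries (at the high doses, 12.9% of all genes stood above vehicle in this way with Yijin-tang and 25.5% with Soshiho-tang), and within Soshiho-tang the medium dose was the lowest. The log2 change against vehicle was 0.88 ± 0.080 with Yijin-tang high (adjusted p = 3.3e-09), 0.41 ± 0.079 with Yijin-tang medium (adjusted p = 0.0131), 1.01 ± 0.087 with Soshiho-tang high (adjusted p = 7.51e-11) and 0.69 ± 0.087 with Soshiho-tang low (adjusted p = 2.58e-05). Among all genes tested, 0.0393% were called higher with Yijin-tang medium and 0.0168% with Soshiho-tang low, where CYP1A1 and CYP1B1 were 2 of the 3 genes called. The Yijin-tang medium call was lost without any 1 of the vehicle libraries or without Yijin-tang medium replicate 3 (lowest value 0.34, adjusted p = 0.231), and stood at 0.41 (adjusted p = 0.000348, 1.11% called higher) in the fit of 52. Soshiho-tang medium passed in the fit of 52 only (0.41, adjusted p = 0.0256, 0.329% called higher), against 0.29 and an adjusted p of 0.0723 in the fit of 54.

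With Schisandrae Fructus, whose fruit contains lignans, CYP1B1 measured 91.0, 93.2 and 93.3 CPM at the low dose, 102, 98.7 and 98.7 at the medium dose and 134, 126 and 133 at the high dose. The high dose was called higher than vehicle (0.47 ± 0.079, adjusted p = 0.000532, 0.6% of all genes called higher). CYP1A1 and TIPARP were called as well in the fit of 52, making 3 members. With Liriopis seu Ophiopogonis Tuber high the values were 109, 110 and 108 CPM, above every vehicle library, as 13.1% of all genes were. The change of 0.21 ± 0.079 did not pass (adjusted p = 0.482, and 0.0671 in the fit of 52).

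TIPARP encodes a mono-ADP-ribosyltransferase that modifies AHR and promotes its loss. It was at 39.9, 37.5 and 39.8 CPM in vehicle and at 65.3, 67.8 and 62.9 with Yijin-tang high. It was at 51.7 and 55.8 CPM with Soshiho-tang low and at 71.1 and 72.0 with Soshiho-tang high. None of these groups overlapped vehicle, whereas Yijin-tang low, at 39.7, 36.6 and 41.6 CPM, did. Every library lay above vehicle for 12.9% of all genes with Yijin-tang high and for 25.5% with Soshiho-tang high. This share was not counted for Soshiho-tang low. With Liriopis seu Ophiopogonis Tuber high, TIPARP lay between 41.51 and 47.71 CPM, above every vehicle library, as 13.1% of all genes did. TIPARP was called there in neither fit. The log2 change was 0.74 ± 0.149 with Yijin-tang high (adjusted p = 0.00603) and 0.88 ± 0.164 with Soshiho-tang high (adjusted p = 0.000438). The SE of TIPARP was 0.149 in the fit of 54 and 0.072 in the fit of 52 for the Yijin-tang high contrast. The libraries that stood apart held 13.97 CPM (Longan Arillus low replicate 3, the lowest of all libraries) and 32.9 CPM (Soshiho-tang medium replicate 3). TIPARP was also called, in the fit of 52, with Yijin-tang medium (0.27, adjusted p = 0.0327, where CYP1A1 was called at 0.77, adjusted p = 0.0158), Soshiho-tang low (0.46, adjusted p = 0.000775, 0.922% of all genes called higher) and Schisandrae Fructus high (0.42, adjusted p = 9.93e-05).

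AHRR encodes a relative of AHR that takes up ARNT without activating transcription. It was at 5.84, 5.42 and 5.33 CPM in vehicle, 6.82, 6.26 and 6.88 with Yijin-tang high and 6.35 and 7.48 with Soshiho-tang high. Both high-dose groups lay above vehicle, as 12.9% and 25.5% of all genes did at these doses. The changes of 0.27 ± 0.159 (adjusted p = 0.828) and 0.33 ± 0.177 (adjusted p = 0.386) did not pass, and neither passed in the fit of 52 (adjusted p = 0.14 and 0.0501). Its group mean was below the vehicle mean at the low dose of all extracts except Soshiho-tang. It was called lower than vehicle, in the fit of 52, with Liriopis seu Ophiopogonis Tuber medium (-0.47, adjusted p = 0.0128, 2.28% of all genes called lower), Zizyphi Semen medium (-0.33, adjusted p = 0.0259, 15.0% called lower) and Zizyphi Semen low (-0.42, adjusted p = 0.00544, 14.6% called lower). With Zizyphi Semen low, CYP1B1 (-0.19, adjusted p = 0.0462) and TIPARP (-0.22, adjusted p = 0.0303) were called lower in that fit too.

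With Longan Arillus low, 3 targets were called lower than vehicle in the fit of 54: CYP1B1 (81.0, 73.8 and 85.2 CPM, -0.22, adjusted p = 0.0266), TIPARP (35.7, 30.8 and 13.97 CPM, -0.52, adjusted p = 0.00779) and AHRR (4.41, 4.51 and 1.93 CPM, -0.57, adjusted p = 0.00729), against 14.4% of all genes called lower. All libraries of the group lay below vehicle for these genes, and the third held the lowest TIPARP and AHRR. The share of all genes that lay below vehicle in this way was not counted. The CYP1B1 call was lost without vehicle replicate 1 (-0.21, adjusted p = 0.0746), vehicle replicate 3 (-0.22, adjusted p = 0.0596) or Longan Arillus low replicate 2 (-0.17, adjusted p = 0.106). The fit of 52 left out the third library of the group and Soshiho-tang medium replicate 3. There CYP1B1 was at -0.28 (adjusted p = 0.00721, 13.9% of all genes called lower), TIPARP at -0.23 (adjusted p = 0.0414) and AHRR at -0.31 (adjusted p = 0.0672). Leaving out only the third library from the fit of 54 lost the calls of TIPARP (-0.23, adjusted p = 0.121) and AHRR (-0.31, adjusted p = 0.12).

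**Figure D2:**
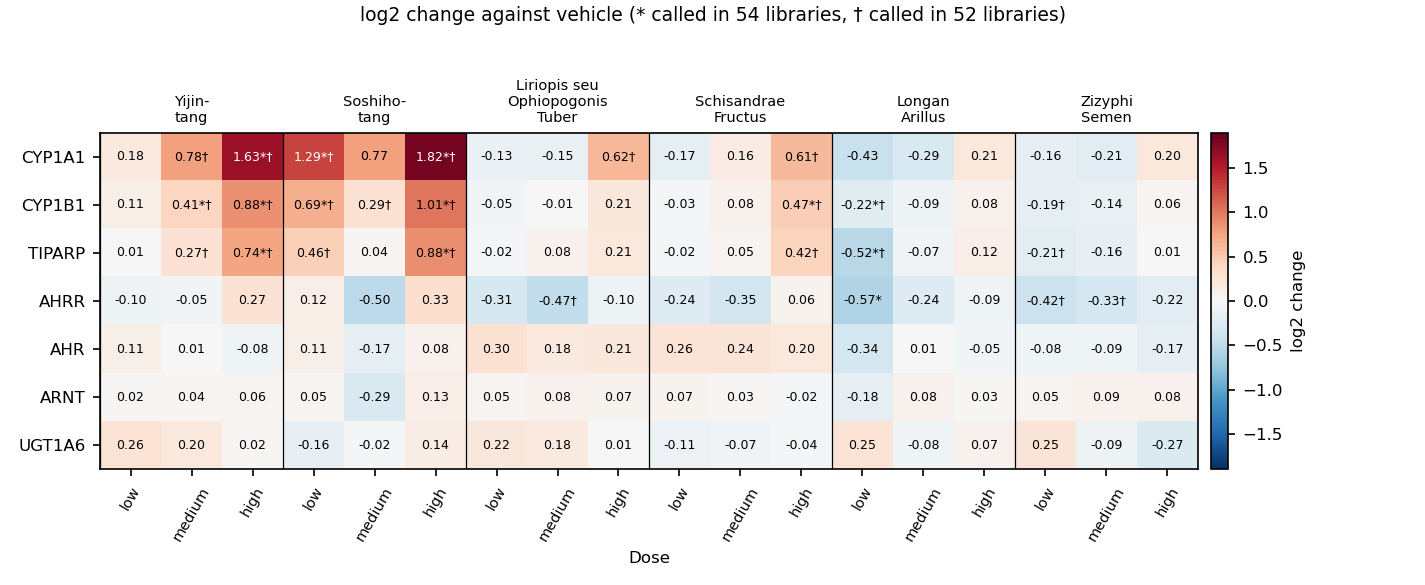
Log2 change against vehicle of the 7 members (horizontal bands) at each dose of the 6 extracts with replicates (columns), from the fit of 54 libraries. Red is higher and blue lower than vehicle, an asterisk marks a call in the fit of 54 and a dagger a call in the fit of 52. The darkest cells are CYP1A1 at the high doses of Soshiho-tang (1.82) and Yijin-tang (1.63), and AHR, ARNT and UGT1A6 carry no mark.

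The comparison of doses within an extract did not involve the vehicle libraries. Group means of CYP1B1 and TIPARP were in dose order (low below medium below high) in 7 of 8 extracts, with Soshiho-tang the exception for both, and 9 of all genes tested (0.0505%) were so in at least 7. In all 6 extracts with replicates, every high-dose library of CYP1B1 and of TIPARP lay above every low-dose library, which held for 4 genes (0.0224%). STK32B was among them and was picked out only by this count, after its values were seen. CYP1B1 and TIPARP were the only genes that met both counts, with and without the 2 libraries that stood apart (without them 0.0617% of genes were in dose order in at least 7 extracts and 0.0224% met the high-against-low count). CYP1A1 and AHRR met the high-against-low count in 5 of 6 extracts (20 genes, 0.112%, met it in at least 5), and Zizyphi Semen was the exception for both. Means of CYP1A1 and AHRR were in dose order in 4 of 8 extracts each (CYP1A1 in 3 without the 2 libraries), where 6.93% of genes were in at least 4, and those of AHR were in 1, of ARNT in 2 and of UGT1A6 in 2.

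High against low dose was called for CYP1A1 (1.44 ± 0.193, adjusted p = 1.82e-05), CYP1B1 (0.77 ± 0.080, adjusted p = 7.46e-08) and TIPARP (0.73 ± 0.15, adjusted p = 0.0181) with Yijin-tang, where 0.101% of all genes were called higher. Between high and medium dose, CYP1B1 was called with Yijin-tang (0.47, adjusted p = 0.0071, 0.0561% called higher), a call lost without medium replicate 1 or 2 or high replicate 2 (0.44, 0.44 and 0.44, adjusted p = 0.0859, 0.0645 and 0.0546). The fit of 52 called CYP1A1 (0.85, adjusted p = 0.00585), CYP1B1 (0.47, adjusted p = 7.07e-05) and TIPARP (0.48, adjusted p = 8.91e-05) there, against 0.274% of all genes. The TIPARP call between high and low dose was lost on leaving out any 1 of 5 of these 6 libraries (adjusted p from 0.0519 to 0.174) and stood at 4.06e-09 in the fit of 52 (0.477% called higher). With Schisandrae Fructus, CYP1B1 (0.50 ± 0.079, adjusted p = 0.00371) was the only gene of all tested that was called (0.00561%), and CYP1A1 (0.78) and TIPARP (0.44) joined it in the fit of 52, where 0.911% of all genes were called higher. The CYP1B1 call was lost without Schisandrae Fructus low replicate 1 (0.49, adjusted p = 0.069). Between high and medium dose of Schisandrae Fructus, CYP1B1 (0.39, adjusted p = 0.0023) and TIPARP (0.37, adjusted p = 0.00612) were called in the fit of 52 only, against 0.34% of all genes. With Soshiho-tang no member was called between high and low dose in the fit of 54, while CYP1B1 (0.32, adjusted p = 0.0097) and TIPARP (0.41, adjusted p = 0.000981) were in the fit of 52 (5.02% called higher). With Longan Arillus, 4 members were called higher at the high than at the low dose (CYP1A1 0.63, CYP1B1 0.31, TIPARP 0.64 and AHRR 0.49, against 3.79% of all genes), and all 4 calls were lost without Longan Arillus low replicate 3 (0.48, 0.37, 0.35 and 0.22). The same holds for TIPARP between medium and low dose (0.45, adjusted p = 0.0361, 3.37% of all genes called higher, and 0.16 without that library). No member was called with Liriopis seu Ophiopogonis Tuber or Zizyphi Semen in either fit.

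**Figure D3:**
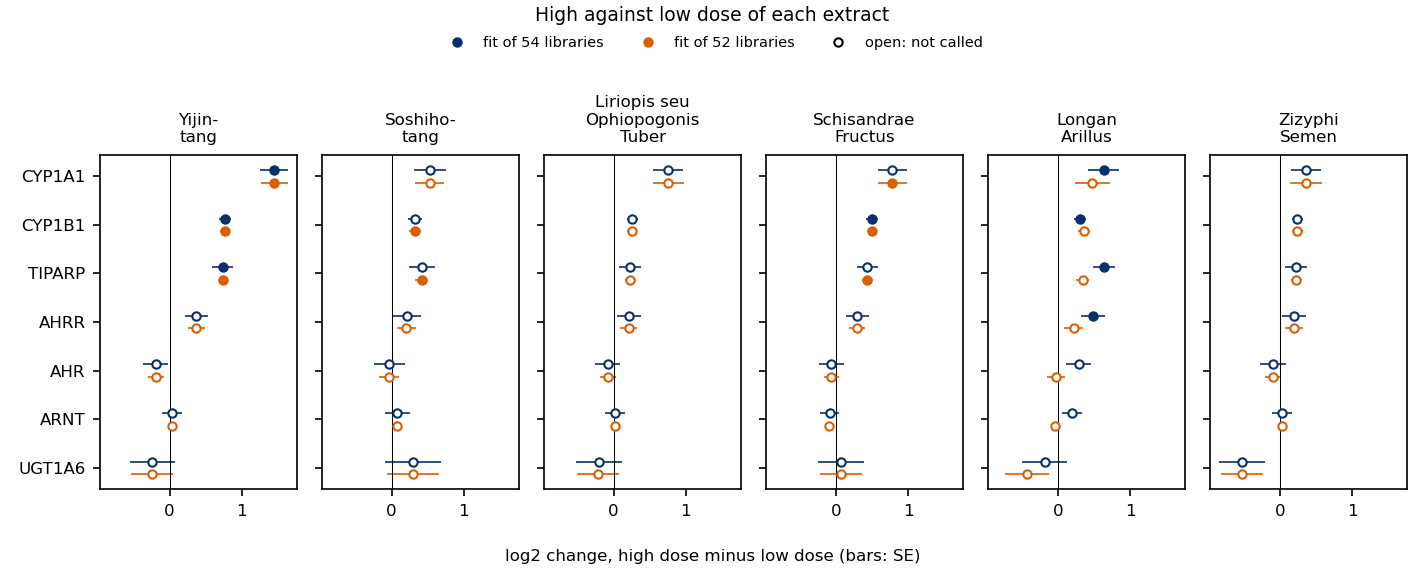
Log2 change of the high against the low dose for the 7 members in the 6 extracts with replicates. Blue points are the fit of 54 libraries, orange the fit of 52, bars are SE and filled points are called. CYP1A1, CYP1B1 and TIPARP lie to the right of 0 in all 6 panels, while AHR and ARNT have no filled point. AHR lies to the left of 0 with Yijin-tang in both fits. Its mean CPM was also lower at the high than at the low dose with Soshiho-tang, Schisandrae Fructus, Zizyphi Semen and Liriopis seu Ophiopogonis Tuber. Both AHR and ARNT lie to the right of 0 with Longan Arillus in the fit of 54.

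Soshiho-tang did not follow the dose order. Its medium dose was below its low dose for CYP1A1, CYP1B1, TIPARP and AHRR in every library, including medium replicate 2, which did not stand apart, but no member was called between them (CYP1B1 -0.40 ± 0.097, adjusted p = 0.124, and -0.28 in the fit of 52). How many of all genes separated in this way between these doses was not counted. Between high and medium dose all 4 targets were called: CYP1A1 by 1.05, CYP1B1 by 0.72, TIPARP by 0.84 and AHRR by 0.83 log2 units, against 3.86% of all genes called higher. The fit of 52 kept 1 medium library, assumed to vary like the other groups, and there the 4 calls held at 1.04, 0.60, 0.60 and 0.61 (2.3% called higher). Leaving out Soshiho-tang medium replicate 3 alone from the fit of 54 took CYP1A1, TIPARP and AHRR to adjusted p of 0.0871, 0.37 and 0.482, and leaving out high replicate 3 took CYP1A1 (0.70) and AHRR (0.71) to 0.146 and 0.114. For AHRR this was the only contrast in which it was called higher in both fits.

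The lowest dose called above vehicle was thus 20 µg/mL with Soshiho-tang (CYP1A1 and CYP1B1) and 100 µg/mL with Yijin-tang (CYP1B1). It was 500 µg/mL with Schisandrae Fructus (CYP1B1), and no dose of the other 3 herbs with replicates was called above vehicle in the fit of 54. Without the 2 libraries the only changes were that CYP1A1 and TIPARP moved to 100 µg/mL with Yijin-tang, TIPARP to 20 µg/mL with Soshiho-tang, CYP1A1 and TIPARP to 500 µg/mL with Schisandrae Fructus and CYP1A1 to 500 µg/mL with Liriopis seu Ophiopogonis Tuber. Yijin-tang low had no member called in the fit of 54 and none with an unadjusted p below 0.05, in edgeR or in DESeq2.

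Both decoctions were in 1 library set, which allowed a direct comparison at each dose. At 20 µg/mL, CYP1B1 was lower with Yijin-tang than with Soshiho-tang by 0.58 ± 0.087 log2 units (adjusted p = 0.00115), the only gene called lower in that contrast (0.00561%), and the call was lost without Soshiho-tang low replicate 3 (-0.55, adjusted p = 0.21). Without the 2 libraries the 3 genes called (0.0165%) were CYP1B1 (-0.59), CYP1A1 (-1.11, adjusted p = 0.0162) and TIPARP (-0.45, adjusted p = 0.0162). At 500 µg/mL the difference was -0.19 for CYP1A1 (95% interval -0.582 to 0.195), -0.14 for CYP1B1 (-0.307 to 0.037) and -0.13 for TIPARP (-0.456 to 0.190), and no member was called. The rise from low to high dose was larger with Yijin-tang by 0.45 for CYP1B1, which was called in the fit of 52 (SE 0.108, adjusted p = 0.0115, 0.971% of all genes called higher) and not in the fit of 54 (adjusted p = 0.173).

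The herbs that shared a set were compared in the same way. CYP1B1 was lower with Liriopis seu Ophiopogonis Tuber high than with Schisandrae Fructus high by 0.26 ± 0.079 log2 units, called in the fit of 52 (adjusted p = 0.0261, 1.79% of all genes called lower) and not in the fit of 54 (adjusted p = 0.439). Between Longan Arillus and Zizyphi Semen no member was called at any dose in either fit. At their high doses the difference was 0.00 for CYP1A1 (95% interval -0.397 to 0.405) and 0.03 for CYP1B1 (-0.129 to 0.182).

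AHR itself was at 60.2, 63.1 and 64.3 CPM in vehicle, 59.4, 59.3 and 58.5 with Yijin-tang high and 64.3 and 67.4 with Soshiho-tang high. The receptor transcript therefore differed by -0.08 ± 0.176 and 0.08 ± 0.196 log2 units from vehicle in the contrasts where CYP1A1 differed by 1.63 and 1.82. The 95% intervals, -0.426 to 0.264 and -0.307 to 0.462, still allow a moderate change of the receptor. AHR lay above every vehicle library, except for 1 library, with Liriopis seu Ophiopogonis Tuber (63.7 to 80.2 CPM) and Schisandrae Fructus (67.2 to 80.8 CPM) at all doses, without passing the test (log2 changes from 0.18 to 0.30). At the high doses of these herbs 13.1% and 13.4% of all genes lay above vehicle in this way. The share was not counted at their lower doses. With Zizyphi Semen it lay between 49.4 and 65.2 CPM. The lowest values of all were in the libraries that stood apart, 24.3 CPM in Longan Arillus low replicate 3 and 44.0 in Soshiho-tang medium replicate 3. In several contrasts with these groups AHR and ARNT differed in sign between the fits: Longan Arillus high against low was 0.29 for AHR and 0.20 for ARNT in the fit of 54 and -0.03 and -0.04 in the fit of 52, none of them called. With Yijin-tang, the AHR means were lower at each higher dose, the reverse of its targets, but high against low was not called (-0.19 ± 0.176, and -0.19 ± 0.111 in the fit of 52). The AHR means were also lower at each higher dose with Schisandrae Fructus (74.72, 73.88 and 71.7 CPM) and Zizyphi Semen (59.01, 58.75 and 55.51). The doses overlapped there. With Soshiho-tang and Liriopis seu Ophiopogonis Tuber the mean of the high dose was likewise below that of the low dose.

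ARNT, the partner without which AHR cannot bind DNA, had the smallest ratio of highest to lowest group mean among the members (1.43, against 9.51 for CYP1A1). Outside the 2 libraries that stood apart, at 23.3 and 24.4 CPM, it lay between 39.8 and 50.4 CPM in every library, and its vehicle libraries held 42.6, 44.8 and 41.7. Neither AHR nor ARNT was called in any of 48 contrasts in either fit. Of their 96 tests, 2 had an unadjusted p below 0.05 in edgeR and 2 in DESeq2 with 54 libraries, and 4 in the fit of 52.

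The ratio of CYP1B1 to AHR counts within a library does not depend on library scaling. On the log2 scale it was 0.594 ± 0.073 (SD, n = 3) in vehicle, 0.585 ± 0.024, 0.999 ± 0.111 and 1.549 ± 0.061 (SD, n = 3 each) with low, medium and high Yijin-tang, and 1.172 ± 0.073, 1.085 ± 0.245 and 1.524 ± 0.083 (SD, n = 2 each) with low, medium and high Soshiho-tang. The means were higher at each step of dose with Yijin-tang, with no overlap between doses, whereas with Soshiho-tang the low and medium doses overlapped. That overlap came from Soshiho-tang medium replicate 3 (1.258), which stood apart. Medium replicate 2, at 0.912, lay below the low libraries, at 1.121 and 1.224. Low-dose ratios of the herbs with replicates were 0.185 to 0.548, against 0.547 to 0.679 in vehicle, apart from 1.812 in Longan Arillus low replicate 3. Aucklandiae Radix went from 0.268 to 0.357 and 0.926 with rising dose.

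**Figure D4:**
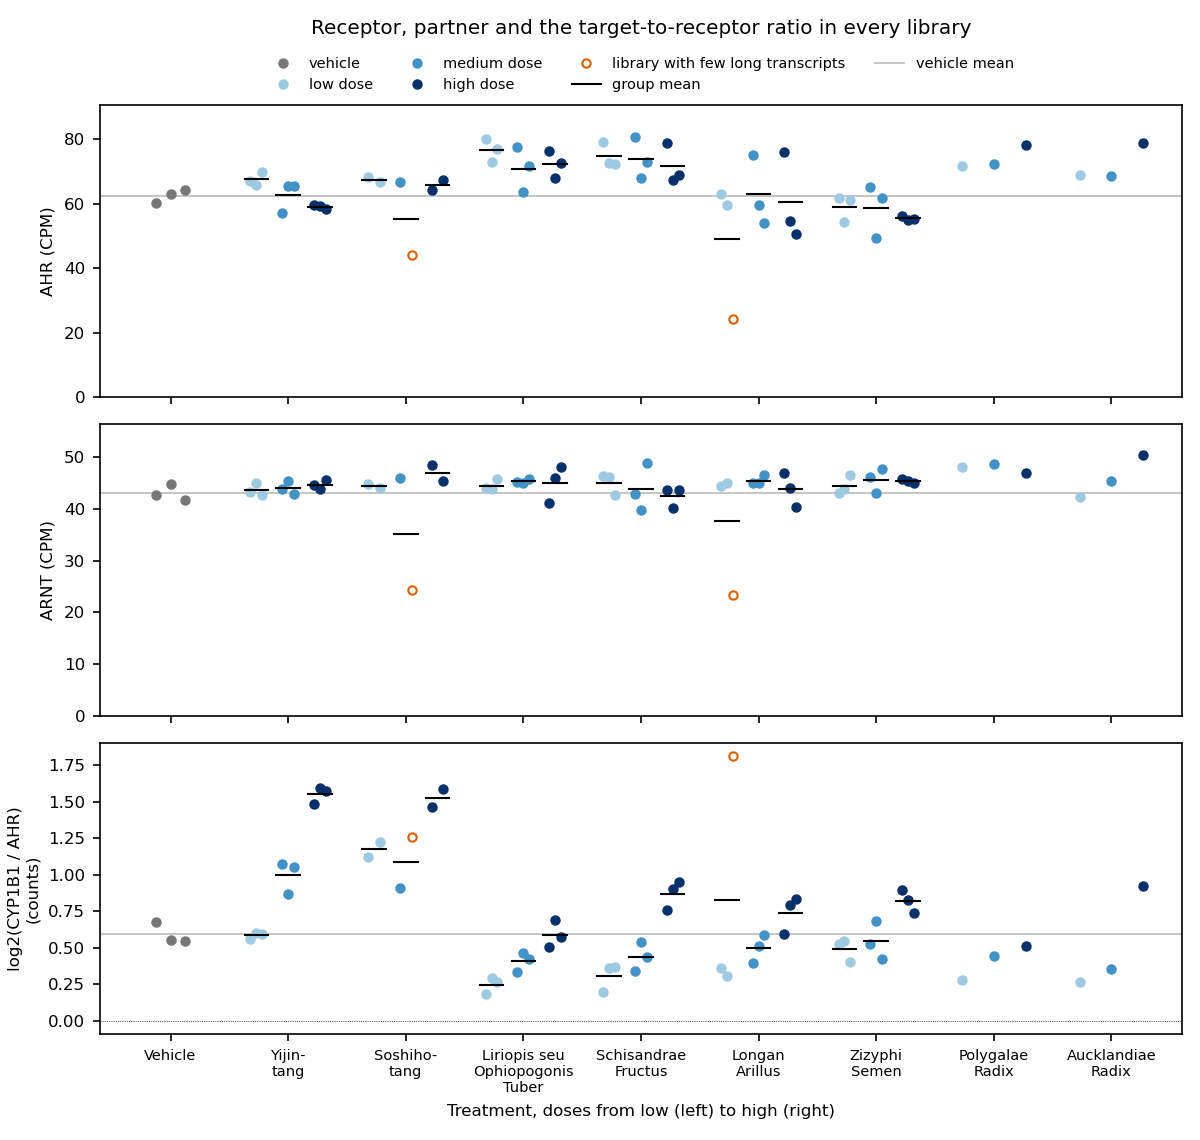
CPM of AHR and ARNT (top and middle panels, linear axes from 0) and log2 ratio of CYP1B1 to AHR counts (bottom panel) in each of 60 libraries, drawn as in the plot of the targets. AHR and ARNT stay near the grey vehicle mean at all doses of the decoctions except in the open orange library, while the mean ratio is 1.549 at the high dose of Yijin-tang and 1.524 at that of Soshiho-tang.

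UGT1A6, a phase II enzyme that conjugates phenols and is an AHR target in liver and gut, did not follow the other targets. It was at 1.37, 1.33 and 1.47 CPM in vehicle, 1.36, 1.98 and 0.866 with Yijin-tang high and 1.36 and 1.71 with Soshiho-tang high. These groups overlapped vehicle, and UGT1A6 was called in no contrast. At 7 to 63 counts per library the SE was 0.286 to 0.5 log2 units over the 48 contrasts, so a change of the size called for CYP1B1 with Schisandrae Fructus was not detectable at this depth. Its lowest levels were in Aucklandiae Radix high (0.321 CPM, exact Poisson 95% interval 0.129 to 0.661) and Polygalae Radix high (0.492 CPM, 0.269 to 0.825). With 1 CPM added, both were at least 1.5-fold below the vehicle mean (log2 ratios of -0.857 and -0.682). They rest on 1 library each, with 7 and 14 counts. The share of all genes this far below vehicle is not given here.

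Aucklandiae Radix and Polygalae Radix had 1 library at each dose, so their values have no replicate check, and the intervals cover counting error only. Aucklandiae Radix high had the highest CYP1A1 of the 60 libraries, 6.37 CPM (exact Poisson 95% interval 5.36 to 7.53), 5.42 times the vehicle mean, after 1.23 CPM at the low and 1.14 at the medium dose. It also had the highest TIPARP, 88.9 CPM, 2.28 times the vehicle mean, after 31.2 and 33.4, and the highest AHRR, 8.16 CPM, after 3.79 and 4.29. CYP1B1 reached 149.5 CPM after 82.8 and 87.8, below all libraries of both decoctions at the high dose. The high values thus appeared between 74 and 370 µg/mL, whereas the values at 14.8 and 74 µg/mL were below the vehicle mean for CYP1B1, TIPARP and AHRR. With 1 CPM added, UGT1A6 was at least 1.5-fold below the vehicle mean. CYP1A1, CYP1B1 and TIPARP were at least 1.5-fold above the vehicle mean (5.19% of all genes were), and AHR and ARNT were not (log2 ratios of 0.33 and 0.22). AHR, at 78.7 CPM (75.0 to 82.5), and ARNT, at 50.4 CPM (47.5 to 53.5), were still the highest of all group means of these genes. In this library the leukocyte marker sum was 35.58 CPM against 14.97 to 16.78 in vehicle, although 4 of its 8 genes stayed under 1 CPM in every library and PTPRC, which defines leukocytes, was at 0.0847 CPM or less. The fibroblast marker sum was 25.17 CPM against 35.3 to 36.43. Their part in the result was not tested.

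The differences were smaller with Polygalae Radix. From low to high dose CYP1B1 went through 87.0, 98.4 and 112 CPM, TIPARP through 35.4, 37.6 and 50.2 and CYP1A1 through 0.670, 0.741 and 0.913, and the last stayed below the vehicle mean of 1.18 CPM. At the high dose UGT1A6 was at least 1.5-fold below the vehicle mean. None of the 7 members reached 1.5-fold above vehicle at the high dose, where 13.1% of all genes did. This depends on the scaling of that library: without TMM factors the median of all genes moved from 0.00 to 0.23 log2 units, and TIPARP (0.68) and AHR (0.64) passed 1.5-fold, as 26.9% of all genes did. Its members are given relative to a library whose epithelial markers were at 3433 CPM.

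Few genes of the other pathway lists were called with the decoctions in the fit of 54, and more were without the 2 libraries. Of 16 measured among 20 further reported AHR targets, none was called with Yijin-tang high and 3 were called higher with Soshiho-tang high in the fit of 54: PTGS2, the inducible cyclooxygenase (47.7 against 29.4 CPM in vehicle, 0.70, adjusted p = 0.000583), EREG, an EGF receptor ligand (198 against 124 CPM, 0.68, adjusted p = 1.69e-10), and POLK, a translesion DNA polymerase (0.37, adjusted p = 0.0474). The list's median change was 0.02 and 0.14 log2 units in these contrasts, against 0.00 and 0.00 for all genes. Without the 2 libraries 1 was called higher with Yijin-tang high (EREG, 0.14, adjusted p = 0.0472), and 7 were called higher and 2 lower with Soshiho-tang high. Over all genes, 3.02% were called higher with Soshiho-tang high in the fit of 54, and 10.2% higher and 11.3% lower in the fit of 52, so the 2 lower calls were near the share over all genes. With Zizyphi Semen high, where none of the 7 members was called, 5 of the 16 were called lower, among them PTGS2 (-0.67, adjusted p = 0.0012), the aldehyde dehydrogenase ALDH3A1 (-0.37, adjusted p = 0.00558), the kynureninase gene KYNU (-0.22, adjusted p = 0.012) and EREG (-0.22, adjusted p = 0.0193), against 1.82% of all genes. The fit of 52 called 6 lower, against 12.8% of all genes, and 2 higher, against 9.29%. In Soshiho-tang high the fibroblast marker sum was 27.67 to 30.77 CPM and the leukocyte sum 18.97 to 19.04, outside the vehicle ranges of 35.3 to 36.43 and 14.97 to 16.78, and their part was not tested.

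The chaperones and coactivators of AHR showed 1 call of 18 at the high doses of the decoctions in the fit of 54, HSP90AB1, which holds the receptor in the cytoplasm (1573 against 2101 CPM, -0.42, adjusted p = 0.00173, Soshiho-tang high, where 2.05% of all genes were called lower). Without the 2 libraries, HSP90AA1 (-0.51, adjusted p = 2.2e-13) and the co-chaperone PTGES3 (-0.30, adjusted p = 2.63e-08) were called lower there too, while KLF6, a zinc-finger transcription factor, was called higher (0.37, adjusted p = 7.21e-06). In all, 5 of the 18 were called lower and 2 higher there, against 11.3% and 10.2% of all genes, and 3 lower and 1 higher with Yijin-tang high, against 4.13% and 3.04%. Of 11 measured PAS-domain relatives of AHR and ARNT, none was called with either decoction at the high dose in the fit of 54, while 3 were called higher with Yijin-tang high and 6 with Soshiho-tang high in the fit of 52, against 3.04% and 10.2% of all genes. Of 11 other measured xenobiotic enzymes and transporters, the efflux pump ABCC3 (0.61, adjusted p = 4.4e-05) and the retinoic acid hydroxylase CYP26B1 (0.54, adjusted p = 0.00935) were called higher with Soshiho-tang high. CYP26B1 was also called with Schisandrae Fructus high (52.8 against 29.4 CPM, 0.85, adjusted p = 4.48e-05). None of 7 measured tryptophan to kynurenine enzymes or of 6 measured UGT1A genes, UGT1A6 among them, was called with either decoction at the high dose in the fit of 54. Of 6 measured PARP relatives of TIPARP, ZC3HAV1 was called lower with Soshiho-tang high (-0.28, adjusted p = 0.038).

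Over the 25 group means of log2(CPM + 1), the gene most like CYP1B1 among 11010 genes was TIPARP (Pearson's r = 0.909), followed by LRP5 (0.815), MBP (0.778), CLMP (0.768) and SLC30A4 (0.758). For CYP1A1 the order was TIPARP (0.878), CYP1B1 (0.878), CLMP (0.872), BIRC3 (0.871) and RIN2 (0.821). AHR ranked far down both lists, with r = 0.159 to CYP1B1 and 0.097 to CYP1A1, as did ARNT (0.172 and 0.132). These are descriptions over 25 means that share the scaling, and the means of Aucklandiae Radix and Polygalae Radix are single libraries. Aucklandiae Radix high held 6.37 CPM of CYP1A1 and 86.85 of BIRC3, against 4.18 and 41.86 with Soshiho-tang high and 3.66 and 36.77 with Yijin-tang high. The values of r were not computed without that library. Without the 2 libraries that stood apart, TIPARP remained first for both, at 0.924 and 0.91, while CYP1B1 went to rank 5 for CYP1A1.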

How the data were processed

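RNA from A549 cultures was sequenced as 100 bp paired reads with a directional kit, per the labels' protocols. The authors deposited expected counts per gene for 60 libraries, which were rounded here to whole numbers (10.485% of values were not whole). FastQC 0.11.9, Trim Galore 0.6.5, STAR 2.7.3a and RSEM 1.3.3 with hg38 are named in the submitters' processing notes; neither the annotation release nor the strand setting is given in the sources used here.

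Groups came from the labels. Contrasts were fitted with edgeR 4.0.16 (R 4.3.3) by the robust quasi-likelihood test with TMM factors, over 54 libraries of 19 replicated groups and the 17826 genes that passed filterByExpr, or 52 libraries and 18228 genes. Adjusted p-values are Benjamini-Hochberg values over all genes of a contrast, and SE is the log2 change divided by the square root of F. In all, 48 contrasts were fitted: 18 against vehicle, 18 within an extract, 9 between extracts of a set and 3 of the high-low change. Single libraries were set against the vehicle mean with 1 CPM added and a threshold of 1.5-fold. The code of the fit was run on simulated counts with known fold changes. These had 3 libraries in every group and a smaller spread than the fit of 54. They held no library like the 2 that stood apart, so the run does not cover the conditions of that fit.

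The genes named were the 7 members, up to 4 called genes of each list and contrast by size of change, and the 5 genes most like CYP1B1 and CYP1A1 by Pearson's r among genes of at least 5 CPM. Members and lists were chosen with earlier results of these data known, as were the 2 libraries left out. Alternatives were RLE factors, DESeq2 1.42.0, no filter, a replicate block, fits within a set and leaving out libraries. No pair of replicates was close enough to be 1 library deposited more than once (chi-square over degrees of freedom at least 1.863). The study's wortmannin control was not analysed here. Promoters were taken from RefSeq (GRCh38.p14). Of the genes counted by dose order, 1 is not reported here by name.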

Additional observations from a re-analysis of the deposited data

Results flagged for a closer look

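The rise of CYP1B1 from low to high dose differed between the decoctions by the test of the difference itself in the fit of 52 libraries: it was larger with Yijin-tang by 0.45 log2 units (SE 0.108, edgeR adjusted p = 0.0115). In the fit of 54 libraries the difference was also 0.45, with an adjusted p of 0.173. At the medium against the low dose, every Yijin-tang medium library of CYP1A1, CYP1B1 and TIPARP lay above every low library, whereas every Soshiho-tang medium library lay below every low library. The share of all genes that separated in these ways was not counted for these doses. The mean changes of the decoctions differed by 1.08 log2 units for CYP1A1, 0.71 for CYP1B1 and 0.71 for TIPARP. These 3 differences were not tested. Without Soshiho-tang medium replicate 3, which has few long transcripts, they were 1.08, 0.58 and 0.45.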

How the results depend on the processing

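Members were called 13 times against vehicle, 14 times between doses of an extract, 1 time between extracts and 0 times for the difference of the high-low change. Without the 2 libraries that stood apart the counts were 24, 17, 4 and 1, and with a replicate block as well (an alternative chosen after seeing the data) 26, 19, 4 and 1. DESeq2 gave 14, 17, 2 and 1, RLE factors 14, 14, 1 and 0, and no filter 12, 10, 1 and 0. Fits within a set gave 12 calls between doses, 2 between extracts and 0 for the difference. Leaving out 1 library at a time gave 11 to 16, 9 to 19, 0 to 4 and 0 to 1. These counts pool higher and lower calls. Over all genes, calls against vehicle went from 97 to 1306 with Yijin-tang high between the fits of 54 and 52. They went from 1067 to 4860 with Zizyphi Semen low, and from 6397 down to 4582 with Longan Arillus low. The counts are therefore not a result about the members alone. The cause of the differences between the fits was not tested. Of 336 changes of the members, 18 differed in sign between the fits of 54 and 52 libraries, 5 of them of AHR and 7 of ARNT, and none of the 18 was called in either fit. Deviations of libraries with the same replicate number had a mean correlation of 0.004 and 0.042 in sets 8 and 9 and -0.01 with vehicle. In set 10 it was 0.121, against -0.062 for other numbers, with 22 of 40 pairs over 0.1. Not every pair was over 0.1 in any set, so the numbers were not taken as pairs, and a replicate block gave 14, 14, 1 and 0 calls. For single libraries, 0.25 CPM added in place of 1 CPM moved CYP1A1 with Aucklandiae Radix high to 2.22 log2 units, and CPM without TMM factors moved 6 of 12 values. CYP1A1, AHRR and UGT1A6 are limited by their low counts.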
